A study of Homo sapiens with 5 samples.

Results

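The genes described here build and drive the contractile actin cytoskeleton. They are actins, tropomyosins, the heavy and light chains of non-muscle and smooth muscle myosin II, calponins and other actin binding proteins, and the transcription factor SRF with its cofactor myocardin. The list held 49 genes chosen by family and function, with earlier results of these data known. Of these, 44 had an array row annotated to that gene alone, out of 18417 genes measured in this way, and the brightest such row stood for the gene. TPM3, FLNA, FLNC and WASF1 matched no such row, EZR matched only a row that also carries another gene's symbol, and these 5 were not analysed here.

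All samples were D54, an established human glioma cell line, with 1 array each. The 2 control arrays came from independent clones with a control shRNA. The 3 TIP-1 shRNA arrays each came from cells with a different shRNA against TIP-1, a small protein that consists of a single PDZ domain and is encoded by TAX1BP3. The cells were transfected with the shRNA. They had been trypsinised, replated in DMEM/F12 medium and grown overnight before RNA was taken. There were no technical replicates, so differences between clones or shRNAs cannot be told from those between cultures or arrays. The labels used here do not say whether the TIP-1 shRNA cells were clones, and a single array cannot tell an shRNA from the culture that carried it.

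Signals are log2 values as the authors deposited them, so that a difference of 1 is a doubling. They ran from 3.27 to 14.69 over the table. The TAX1BP3 row, which is shared with a read-through transcript, read 12.05 and 12.10 in control cells and 9.81, 9.61 and 9.55 in shRNAs 1, 2 and 3. It thus fell by 2.42 on the log2 scale (SE 0.105, limma adjusted p = 0.011). Array medians lay between 7.88 and 7.98, and those of the shRNA arrays lay below both controls. The shRNA 3 array stood apart from the others: the SD of its row differences from each other array lay between 0.292 and 0.315, whereas the other pairs lay between 0.191 and 0.284. Of the glial and glioma markers, VIM read between 13.84 and 14.02 and CD44 between 13.73 and 13.80, while GFAP read between 7.86 and 8.14, SOX2 between 7.05 and 7.26 and S100B between 6.23 and 6.31. The table has no detection calls, so no gene could be called absent.

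Actin monomers join end to end into filaments, and tropomyosins lie along the filament and set which other proteins reach it. Myosin II pulls on the filaments once its regulatory light chain is phosphorylated, and alpha-actinins, filamins and fascin tie filaments together. New filaments arise at the Arp2/3 complex, which WASP and WAVE proteins switch on, while cofilin and profilin recycle monomers. Free actin monomers hold back the MRTF cofactors of SRF, so SRF, which acts on many of these genes, responds to the state of the filaments. In gliomas this machinery is known for its part in cell migration through brain tissue.

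None of the 44 passed the threshold in either direction (limma, adjusted p under 0.05 over all 33297 rows, where 1 row, that of TAX1BP3, or 0.003% passed). At an unadjusted p under 0.05 there were 2 (6.02% of all genes), 1 higher, WASF2 (3.08%), and 1 lower, ENAH (2.94%). The smallest adjusted p among the 44 was 0.707. In the TIP-1 shRNA arrays 26 of the genes had a lower mean and 18 a higher one, with a median log2 difference of -0.034, against -0.009 over all genes. After median centring of the arrays the split turned to 17 lower and 27 higher (median 0.027). That of all genes turned from 9659 lower and 8758 higher to 6469 and 11948 (median 0.052). With quantile normalization 27 of the 44 were lower and 17 higher (median -0.038). Over all genes 9087 were then lower and 9330 higher (median 0.002). For 39 of the 44 the 95% interval lay within 1.5-fold in both directions, against 88.4% of all genes. The 5 whose interval reached further were ACTA2, TMOD1, MYL9, WASF3 and ENAH. Exact permutation over 2 and 3 arrays reaches no two-sided p below 0.1 and was not used.

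**Figure D1:**
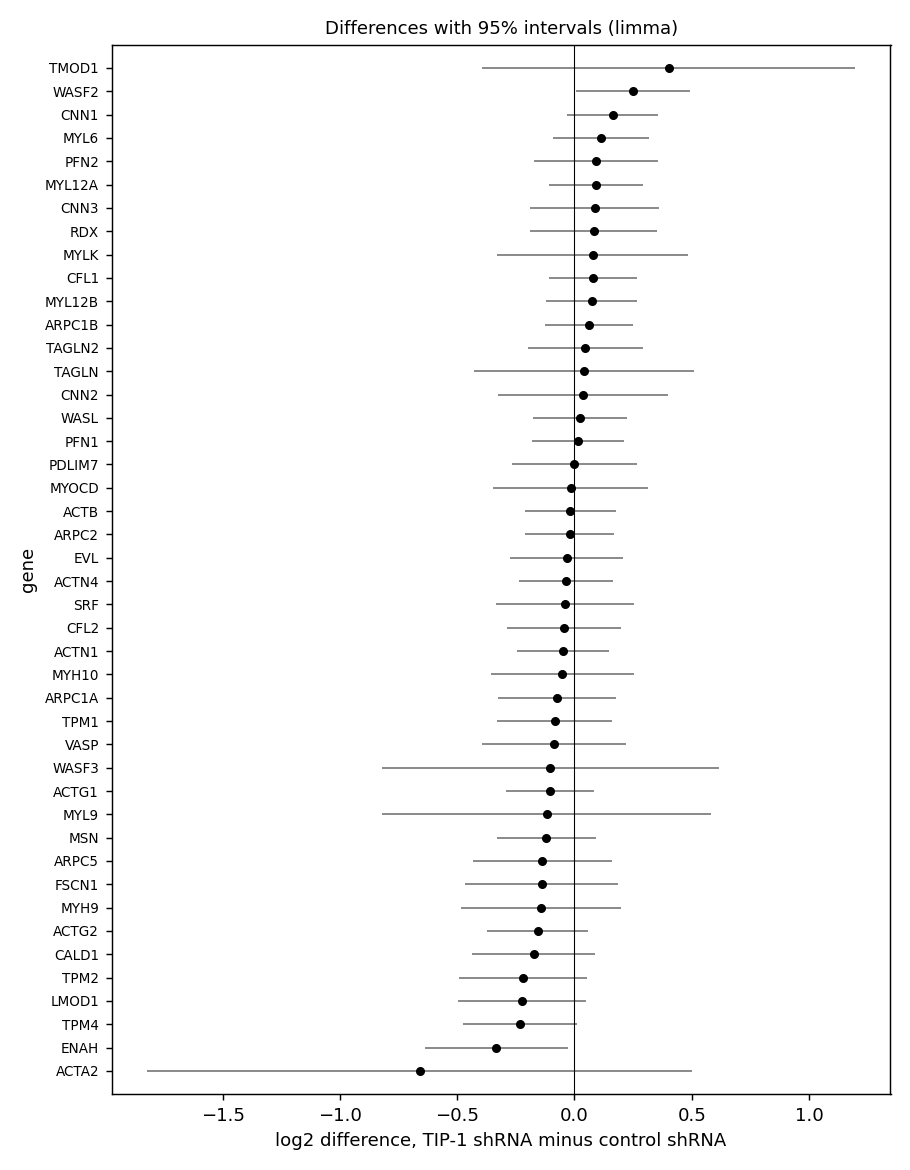
Log2 difference of each of the 44 genes (points, mean of 3 TIP-1 shRNA arrays minus mean of 2 control arrays) with limma's 95% interval (lines), sorted by size. Most intervals are narrow and cross 0. ACTA2 at -0.66 and TMOD1 at 0.40 have the widest intervals toward lower and higher values, and ENAH and WASF2 are the genes whose unadjusted interval leaves out 0.

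The groups did not overlap for 15 of the 44 genes (34.1%), against 26.5% of all genes. After median centring it was 12 (27.3%), against 29.3%, and after quantile normalization 15 (34.1%), against 24.5%. All 3 TIP-1 shRNA arrays lay above both controls for 7 genes, MYL6, MYL12A, MYL12B, CNN1, CFL1, ARPC1B and WASF2, where the background was 12.5%. They lay below both controls for 8, ACTG1, ACTG2, TPM2, TPM4, LMOD1, ENAH, MSN and ARPC5, where the background was 14.1%. All 3 arrays lay within 0.2 log2 units of the control mean for 23 genes (52.3%), against 48.3% of all genes.

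The shRNA arrays were also read singly. At 1.5-fold from the control mean, ACTA2 was the 1 gene below in shRNA 1 (background 0.907%) and the 1 gene below in shRNA 2 (1.1%), and no gene was above in either (0.581% and 0.7%). In shRNA 3, TMOD1 was the 1 gene above (2.47%) and none was below (0.858%). By placement, shRNA 1 lay above both controls for 10 genes and below for 21 (32.2% and 31.2% of all genes). The counts were 16 and 19 in shRNA 2 (30.8% and 37.7%) and 21 and 17 in shRNA 3 (35.5% and 41.9%). The 3 shRNA arrays share their controls, so their differences are not independent of each other. For 7 genes shRNAs 1 and 2 lay below both controls and shRNA 3 above both. These were ACTA2, MYH9, ACTN4, CFL2, ARPC1A, WASF3 and SRF (15.9% of the 44, against 5.42% of all genes). TAGLN, TAGLN2 and MYOCD showed the opposite placement (6.82%, against 5%). TAGLN in shRNA 2 (7.949 against 7.947 in control 2) and MYOCD in shRNA 1 (6.454 against 6.449 in control 2) did so by a very small margin. Both placements were singled out after the values were seen, and each shRNA has 1 array, so they carry no test.

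**Figure D2:**
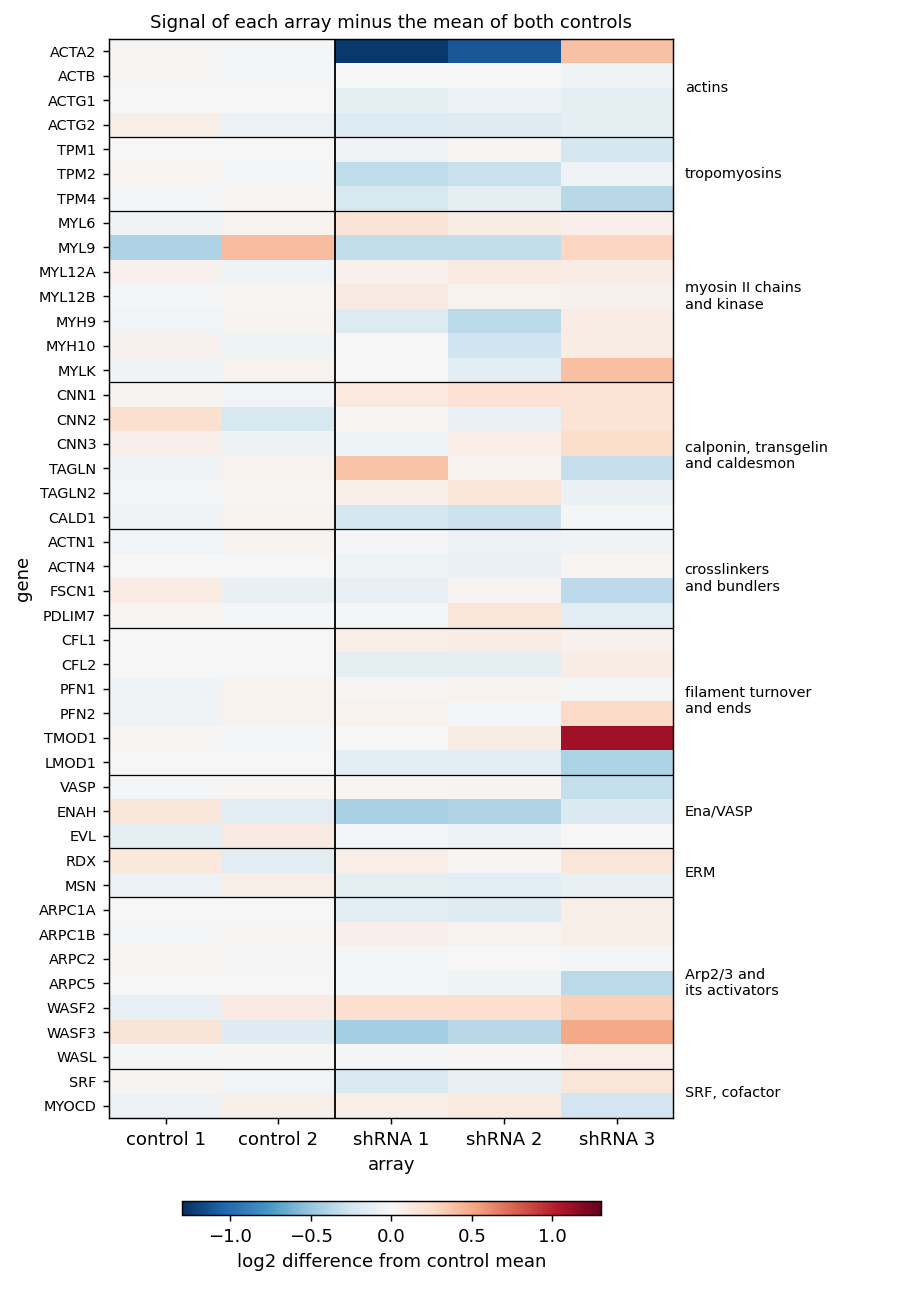
Heat map of the log2 signal of each array minus the mean of both controls for the 44 genes (rows, grouped by role) in the 5 arrays (columns). The deepest colours are ACTA2 in shRNAs 1 and 2 (-1.25 and -1.11) and TMOD1 in shRNA 3 (1.10), and the controls themselves differ for MYL9.

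Several of these genes carry the DNA element that SRF binds, the CArG box, which starts with CC, ends with GG and has only A or T at the 6 positions between. It was searched on the gene's strand in RefSeq promoter windows of GRCh38.p14. These run from 250 bases before to 50 bases after each listed start. The pattern reads the same on the other strand, which therefore gives the same matches. Of the 44 genes, 36 had a window and 7 of these held a box in at least 1 window (19.4%), against 1.6% of the 27305 genes in that table. The boxes are shown because SRF, itself on the list, binds this element, and 29 of the 36 genes held none. Each stretch is written 5′ to 3′ on the gene's strand and ends before the start, with boxes in capitals.
ACTG1 (chr17:81512874-81512903, minus strand): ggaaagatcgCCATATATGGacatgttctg
ACTG2 (chr2:73892888-73892954, plus strand): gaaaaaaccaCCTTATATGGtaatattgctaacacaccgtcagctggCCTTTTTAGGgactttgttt
ACTN1 (chr14:68977718-68977747, minus strand): acgctcatgtCCAAAAATGGtaacattcat
CNN2 (chr19:1026509-1026538, plus strand): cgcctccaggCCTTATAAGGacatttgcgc
MYLK (chr3:123620623-123620652, minus strand): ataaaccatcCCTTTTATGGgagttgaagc
SRF (chr6:43171229-43171268, plus strand): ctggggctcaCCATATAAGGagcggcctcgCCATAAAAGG
TPM4 (chr19:16067355-16067384, plus strand): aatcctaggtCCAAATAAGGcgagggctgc

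The 7 genes with a box did not move as a block. Their log2 differences lay between -0.23 (TPM4) and 0.079 (MYLK), with a median of -0.048, and the median of the 29 genes with a window but no box was -0.037. ACTG1, ACTG2 and TPM4 had all 3 TIP-1 shRNA arrays below both controls, and the groups overlapped for the other 4. Groups were apart for 10 of the 29 without a box and for 26.5% of all genes, with 14.1% below. The windows of ACTA2 held no box by this strict definition, so ACTA2 was counted among the 29, and SRF binding was not tested. They held a pair of elements in which 1 of the 6 middle positions is not A or T. At least 1 such looser element was found in 8.46% of all genes and in 7 of the 36. A gene counted as without a box can thus hold looser elements, as ACTA2 does. The ACTA2 pair lies 121 and 71 bases before the start and is shown because ACTA2 had the largest difference of the list.
ACTA2 (chr10:88952825-88952904, minus strand): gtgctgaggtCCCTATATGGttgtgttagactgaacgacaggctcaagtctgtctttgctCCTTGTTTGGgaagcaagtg

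Among the actins, the cytoplasmic isoforms read close to their control level, and the smooth muscle isoform ACTA2 varied most. ACTA2, the alpha actin of smooth muscle and of contractile fibroblasts, read 10.25 and 10.21 in control cells and 8.98, 9.12 and 10.61 in shRNAs 1, 2 and 3. It was thus 2.38-fold and 2.16-fold lower in shRNAs 1 and 2 and 1.30-fold higher in shRNA 3, where the controls differed by 0.037 log2 units. Across the 3 shRNAs the mean was 9.57 ± 0.905 (SD, n = 3) against 10.23 ± 0.026 (SD, n = 2), and the difference of -0.66 did not pass (SE 0.48, 95% interval -1.82 to 0.50, limma adjusted p = 0.758). Without shRNA 3 the difference was -1.18 (limma adjusted p = 0.107), and without shRNA 1 or 2 it was -0.37 and -0.43. In bulk RNA, fewer cells with a transcript and less transcript per cell cannot be told apart.

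Other cell types in which ACTA2 is known were looked at beside it. Of 20 measured muscle markers, 6 had a higher and 14 a lower mean with TIP-1 shRNA (9 and 11 after median centring). Their mean log2 level was 7.79 and 7.74 in control cells and 7.81, 7.78 and 7.60 in shRNAs 1, 2 and 3, and the smooth muscle myosin MYH11 read between 7.13 and 7.37. Of 9 fibroblast markers, 2 were higher and 7 lower (4 and 5 after median centring), with mean levels of 7.73 and 7.63 in control cells and 7.61, 7.57 and 7.88 with the shRNAs. In shRNA 3, COL1A1, COL3A1, DCN and THY1 lay below both controls, COL1A2 and FAP between them, and LUM, PDGFRB and POSTN above both, with a median difference of -0.001 over the list. LUM and PDGFRB, from the last 3, were singled out after values were seen. The proteoglycan LUM read 5.47 and 5.47 in control cells and 4.87, 4.95 and 6.18 in shRNAs 1, 2 and 3. LUM thus had the placement of ACTA2, with each value under the lower quartile of its array (6.35 to 6.45). The receptor PDGFRB read 9.71 in shRNA 3 against 8.56 to 8.85 elsewhere. Of the muscle markers, DES and MYL1 had the opposite placement to ACTA2. The part of these markers in the ACTA2 values was not tested.

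Annotated neighbours of ACTA2 were also read. The death receptor gene FAS, which overlaps ACTA2 in the RefSeq table, read 9.14 and 8.88 in control cells and 8.28, 8.44 and 8.92 with the shRNAs, so shRNAs 1 and 2 were lower and shRNA 3 lay between the controls. The antisense gene ACTA2-AS1 read 7.55 and 7.68 in control cells and 7.37, 7.28 and 7.42 with the shRNAs, and all 3 were below. STAMBPL1 read 10.31 and 10.20 in control cells and 10.19, 10.01 and 10.50 with the shRNAs. ANKRD22 read 5.22 and 5.38 against 5.18, 5.22 and 5.45. Both had the placement of ACTA2, which 5.42% of all genes had, and their group differences were -0.023 and -0.021. None of these neighbours passed, and overlapping genes may share signal, which was not tested.

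ACTB, cytoplasmic beta-actin and a common reference gene, read 14.21 and 14.17 in control cells and 14.19, 14.19 and 14.13 with the shRNAs. Its difference of -0.018 had an interval of -0.21 to 0.18. ACTG1, cytoplasmic gamma-actin, read 14.19 and 14.18 in control cells and 14.07, 14.11 and 14.07 with the shRNAs. All 3 lay below both controls, which differed by 0.004 log2 units, yet the difference of -0.10 (SE 0.077) was small and did not pass. ACTG2, the gamma actin of enteric smooth muscle whose promoter stretch above holds a pair of boxes, read 7.15 and 6.99 against 6.89, 6.90 and 6.94, a difference of -0.16 (interval -0.37 to 0.059). Actin isoforms are nearly identical in sequence, so their rows may not be fully independent of each other.

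**Figure D3:**
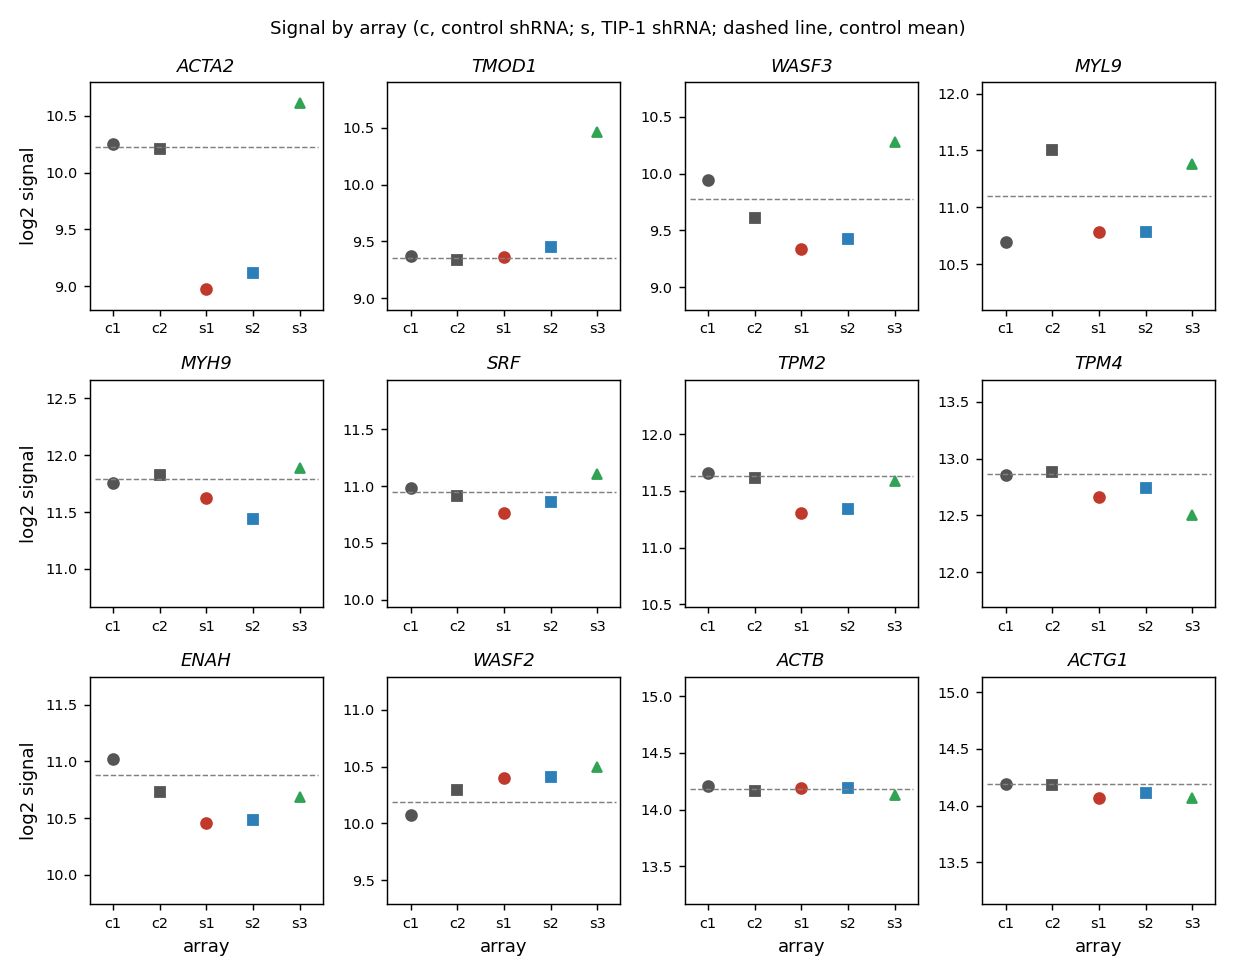
Log2 signal of 12 genes in each array (c1 and c2, controls; s1 to s3, TIP-1 shRNAs; dashed line, mean of both controls), with every panel spanning 2 log2 units. ACTA2 and WASF3 are lowest in s1 and s2 and highest in s3, TMOD1 is high in s3 alone, the controls of MYL9 are far apart, and ACTB and ACTG1 are nearly flat.

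Tropomyosins, the filament coat, were each lower on average with TIP-1 shRNA, and none of the 3 measured passed. TPM4, a short non-muscle form, read 12.85 and 12.88 in control cells and 12.66, 12.74 and 12.50 in shRNAs 1, 2 and 3, so the groups were apart. The difference of -0.23 (SE 0.099, 95% interval -0.47 to 0.0098) had a limma adjusted p of 0.707, and it was -0.17 without shRNA 3 and -0.28 without shRNA 2. A further TPM4 row read 11.95 and 12.02 against 11.90, 11.87 and 11.57, a difference of -0.20. TPM2, a form abundant in smooth muscle, read 11.65 and 11.61 in control cells and 11.30, 11.34 and 11.59 with the shRNAs. All 3 were below, but shRNA 3 by only 0.041 from the control mean, and the difference of -0.22 (SE 0.11) did not pass (limma adjusted p = 0.713). TPM1 differed by -0.083, with shRNA 3 lowest at 12.01 and the other 4 arrays between 12.19 and 12.25.

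Of the 7 genes for myosin II and its kinase, the essential and regulatory light chains were slightly higher and the heavy chains slightly lower on average (MYH10 was 0.0083 higher after median centring), and none passed the threshold. MYL6, the essential light chain, read 12.69 and 12.78 in control cells and 12.90, 12.84 and 12.80 with the shRNAs (difference 0.11, interval -0.093 to 0.32). The regulatory light chain MYL12A read 8.73 and 8.62 against 8.74, 8.79 and 8.77 (0.090), and its near-identical neighbour MYL12B differed by 0.074, again with all 3 shRNA arrays above. The pair could share probe signal, and a row annotated to both was not used. The exception among the light chains was MYL9, the smooth muscle regulatory form, where the controls disagreed. It read 10.69 and 11.51 in control cells and 10.78, 10.78 and 11.38 with the shRNAs, so every shRNA array lay between them. Its difference of -0.12 was 0.29 without control 2 and -0.52 without control 1.

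MYH9, the heavy chain of non-muscle myosin IIA, read 11.76 and 11.83 in control cells and 11.62, 11.44 and 11.89 in shRNAs 1, 2 and 3. MYH10, the heavy chain of myosin IIB, read 10.06 and 9.96 against 10.01, 9.75 and 10.10. The kinase that phosphorylates the light chain, MYLK, read 10.81 and 10.90 against 10.85, 10.71 and 11.25. In each of these 3 genes shRNA 2 was the lowest array and shRNA 3 the highest. The group differences were -0.14, -0.053 and 0.079.

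Calponins, transgelins and caldesmon bind filaments, and several serve as smooth muscle markers. CNN1, the smooth muscle calponin, read 7.68 and 7.62 in control cells and 7.78, 7.83 and 7.83 with the shRNAs. All 3 were above, and the difference of 0.16 (SE 0.080, 95% interval -0.030 to 0.36) did not pass (limma adjusted p = 0.713). CNN1 and ACTA2 thus differed in direction in shRNAs 1 and 2, CNN1 by 0.13 and 0.18 and ACTA2 by -1.25 and -1.11. Each CNN1 value lay under the median of its array (7.88 to 7.98). TAGLN, another gene of the smooth muscle programme, read 7.85 and 7.95 against 8.27, 7.95 and 7.60, with shRNA 1 highest and shRNA 3 lowest. CALD1, caldesmon, read 9.29 and 9.39 against 9.11, 9.06 and 9.32, a difference of -0.17 (interval -0.44 to 0.090) in which shRNA 3 lay between the controls. CNN2, CNN3 and TAGLN2, forms found outside muscle, differed by 0.037, 0.087 and 0.046, and the CNN2 controls were 0.41 apart.

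The crosslinkers read close to their control level. ACTN1 and ACTN4, the non-muscle alpha-actinins, differed by -0.048 and -0.037, with intervals of -0.24 to 0.15 and -0.24 to 0.16. PDLIM7, which joins alpha-actinin at stress fibres, read 10.91 and 10.86 in control cells and 10.86, 11.05 and 10.75 with the shRNAs. FSCN1, fascin, which bundles the filaments of filopodia, read 11.91 and 11.73 against 11.72, 11.85 and 11.47. Only its shRNA 3 array was clearly below both controls, and the difference of -0.14 (interval -0.47 to 0.19) did not pass.

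Genes of filament ends and turnover held the other large single-array value. TMOD1, tropomodulin, which caps the pointed ends of filaments, read 9.38 and 9.34 in control cells, 9.36 and 9.45 in shRNAs 1 and 2, and 10.46 in shRNA 3. The shRNA 3 array was thus 2.15-fold above the control mean, and the other 4 arrays lay between 9.34 and 9.45. The group difference of 0.40 (SE 0.33, 95% interval -0.39 to 1.20) did not pass (limma adjusted p = 0.771) and was 0.050 without shRNA 3. Against the control mean its neighbours TSTD2, NCBP1 and XPA were 0.19, 0.030 and 0.20 higher in shRNA 3, and TSTD2 overlaps TMOD1 in the RefSeq table. PDGFRB, given above, was also high in shRNA 3, where the median difference of the 9 fibroblast markers was -0.001. The part of PDGFRB in the TMOD1 value was not tested. LMOD1, leiomodin of smooth muscle, read 6.84 in both controls and 6.71, 6.71 and 6.43 with the shRNAs, a difference of -0.22 (SE 0.11) that did not pass (limma adjusted p = 0.713). CFL1, the main non-muscle cofilin that severs filaments, was 0.077 higher with all 3 arrays above both controls. The muscle form CFL2 was 0.045 lower on average and its shRNA 3 array lay above both controls. The monomer binding profilins PFN1 and PFN2 differed by 0.015 and 0.092.

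Ena/VASP proteins protect growing filament ends in lamellipodia and filopodia. ENAH, also called Mena, read 11.02 and 10.73 in control cells and 10.46, 10.48 and 10.69 with the shRNAs. The groups were apart, and the difference of -0.33 (SE 0.13, 95% interval -0.64 to -0.028) had the smallest unadjusted p of the 44 genes, 0.037, and a limma adjusted p of 0.707. The controls were 0.29 apart, and the difference was -0.19 without control 1 and -0.48 without control 2. VASP read 10.10 and 10.13 in control cells, 10.13 and 10.15 in shRNAs 1 and 2, and 9.81 in shRNA 3. EVL differed by -0.032, and all its shRNA arrays lay between the controls.

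Of the ERM proteins, which link filaments to the plasma membrane, MSN (moesin) read 13.25 and 13.41 in control cells and 13.21, 13.20 and 13.23 with the shRNAs, a difference of -0.12 (interval -0.33 to 0.093). The control arrays were 0.16 apart, more than that difference. RDX (radixin) differed by 0.083, and its controls were 0.27 apart.

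The Arp2/3 subunits were close to their control level, and the WAVE proteins that activate the complex were less uniform. WASF2, the widely expressed WAVE protein, read 10.07 and 10.29 in control cells and 10.40, 10.41 and 10.50 with the shRNAs. All 3 were above, and the difference of 0.25 (SE 0.10, 95% interval 0.0074 to 0.49, unadjusted p = 0.045) did not pass (limma adjusted p = 0.707). It was 0.14 without control 1 and 0.36 without control 2. WASF3, a WAVE protein typical of brain, read 9.95 and 9.61 in control cells and 9.33, 9.42 and 10.27 in shRNAs 1, 2 and 3. Its group difference of -0.10 had an interval of -0.82 to 0.61 and changed sign without control 1 (0.066), shRNA 1 (0.069) or shRNA 2 (0.025). The neural WASP gene WASL differed by 0.024. Among subunits, ARPC1A, ARPC1B and ARPC2 differed by -0.074, 0.064 and -0.020. ARPC5 read 11.96 in both controls and 11.95, 11.91 and 11.61 with the shRNAs, so all 3 lay below but only shRNA 3 by more than 0.1, and the difference of -0.14 (interval -0.43 to 0.16) did not pass.

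SRF read 10.98 and 10.92 in control cells and 10.77, 10.86 and 11.11 in shRNAs 1, 2 and 3. ACTA2 shared this placement, on a much wider scale. The SRF difference between the groups was -0.041 (interval -0.33 to 0.25). MYOCD, the myocardin cofactor that drives the smooth muscle programme, read 6.29 and 6.45 against 6.45, 6.48 and 6.12, with a difference of -0.016.

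Other genes of the pathway, in 2 lists by function, passed the test in neither direction. Of 16 MRTF cofactors and other SRF targets, 7 were higher and 9 lower (median -0.021), or 11 and 5 after median centring (0.040). Groups were separated for 6 (37.5%, against 26.5% of all genes). Before adjustment 4 of the 16 were higher at p under 0.05, DSTN and the 3 named next, and 0 were lower (limma), against 3.08% and 2.94% of all genes. The higher ones with the smallest p were ANKRD1 (difference 0.32, SE 0.094), JUNB (0.29, SE 0.093) and TES (0.28, SE 0.10), each with all 3 shRNA arrays above both controls. The lower ones were CCN1 (-0.24, SE 0.13), ZYX (-0.12) and TGFB1I1 (-0.074). Set against the control mean, these 16 genes had a median of -0.042 with shRNA 1 and -0.043 with shRNA 2, while for shRNA 3 it was 0.25. Over all genes these medians were 0.001, -0.014 and -0.018. In shRNA 3, CCN1, CCN2, ZYX and TGFB1I1 lay below both controls, EGR1 and EGR3 between them and the rest above both.

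Of 37 other genes of branching, capping, severing and bundling, 24 were higher and 13 lower (median 0.040), or 29 and 8 after median centring (0.10). Groups were separated for 9 (24.3%, against 26.5% of all genes), and 1 gene was higher at an unadjusted p under 0.05. TMOD2, the tropomodulin of neurons, read 9.20 and 8.82 in control cells and 9.56, 9.80 and 9.38 with the shRNAs, a difference of 0.57 (SE 0.17) with an unadjusted p of 0.014. TMOD1 and TMOD2 thus differed in which shRNA arrays were high. Gelsolin, GSN, differed by 0.32 (SE 0.14) and ARPC3 by 0.23 (SE 0.10), while NCKAP1 (-0.18), ACTN3 (-0.12) and PLS3 (-0.16) were lower. None of the genes named from these 2 lists passed over all rows, where the limma adjusted p was 0.707 or above.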

How the data were processed

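The table holds 1 log2 signal per transcript cluster and array, deposited by the authors after processing with the Affymetrix Exon Array Computational Tool, per the series' design text. Its version and any normalization were not stated there. The design text names an exon array, but row identifiers matched the annotation of a gene-level array, so exons and splice forms were not compared. Array medians and quartiles nearly coincided and values were used as deposited. Of 33297 rows, 19460 had 1 symbol, 1754 several and 12083 none. Symbols were checked through gene identifiers for 19429 rows and none changed.

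Differences were fitted over all rows with limma 3.58.1 in R 4.3.3 (lmFit, eBayes, two-sided), with Benjamini-Hochberg adjustment and a threshold of 0.05, and the script was tested on simulated data. Genes and lists were chosen with earlier results of these data known. All 44 genes are named by role. Values in every array are given for the 16 with the smallest p, any with a difference of at least 0.5, and ACTB, ACTG1, SRF and MYOCD. Other genes with values in every array were chosen after their values were seen. Up to 3 genes per direction are named from each pathway list. A further pathway list is not reported here. The number of arrays limits the precision. Alternatives were quantile normalization, median centring, bright rows only, a trended robust fit and array weights. Further ones were a replicate block, the mean of all single-symbol rows of a gene, and leaving out each array.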

Additional observations from a re-analysis of the deposited data

How the results depend on the processing

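No gene of the contractile list or of the pathway lists passed the threshold under any alternative run. The number of rows that passed, 1 as reported, was 2 with array weights, 15 with the replicate block, and between 0 and 6 in fits on 4 arrays (0 on dropping either control or shRNA 2, and 6 on dropping shRNA 3). Whether replicate numbers pair the samples could not be told. Deviations from the group mean correlated at 0.049 for the arrays numbered 1 and at -0.053 for those numbered 2. The deviations of 2 controls are always equal and opposite, so these correlations cannot decide it. The block also leaves shRNA 3 without a partner. The contractile genes with separated groups numbered 15 as reported and also after quantile normalization (34.1%, against 24.5% of all genes). After median centring there were 12 (27.3%, against 29.3%). With 1 array left out there were 18 (without shRNA 2) to 26 (without shRNA 3), where fewer arrays also separate more of all genes (33.6% to 57.9%). The median difference of the 44 genes lay between -0.038 and -0.014 with 1 array left out. It was 0.027 after median centring, which moved the median of all genes to 0.052. With quantile normalization it was -0.038, against 0.002 over all genes. The MRTF and SRF target median ran from -0.046 to 0.080 with 1 array left out.

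Of the recomputed differences of single contractile genes, 478 kept their sign and side of the threshold and 45 changed sign. Each change was for a gene that did not pass. Median centring raised every difference by the same amount, so the genes it turned were those slightly lower as reported. For the other settings the cause was not tested. Quantile normalization gave PDLIM7 -0.023, PFN1 -0.0032 and MYOCD 0.039. Median centring gave ACTB 0.043, MYH10 0.0083, ACTN1 0.013, ACTN4 0.025, CFL2 0.017, EVL 0.029, ARPC2 0.041, SRF 0.020 and MYOCD 0.045. Array weights gave MYLK -0.062, CNN2 -0.034 and MYOCD 0.072. The replicate block gave ACTB 0.0034, MYLK -0.079, CNN2 -0.032, VASP 0.024, WASL -0.0064 and MYOCD 0.099. With 1 array left out, signs changed within these ranges: ACTB -0.037 to 0.0034, MYL9 -0.52 to 0.29, MYH10 -0.13 to 0.050, MYLK -0.079 to 0.19, CNN2 -0.17 to 0.24, TAGLN -0.12 to 0.21, TAGLN2 -0.0083 to 0.11, PDLIM7 -0.080 to 0.068, PFN1 -0.026 to 0.057, VASP -0.15 to 0.024, EVL -0.15 to 0.083, RDX -0.054 to 0.22, ARPC2 -0.049 to 0.0077, WASF3 -0.40 to 0.069, WASL -0.0064 to 0.048, SRF -0.14 to 0.031 and MYOCD -0.097 to 0.099. Without detection calls, how far dim rows are limited by background is unknown.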
